A study of Mus musculus with 8 samples.

Results

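The genes described here are the monocyte-attracting CC chemokines Ccl2, Ccl7, Ccl8, Ccl11 and Ccl12, and Ccr2, the chemokine receptor that draws inflammatory monocytes out of the bone marrow. They were chosen by name, as the 5 neighbouring ligand genes of one chemokine cluster together with the receptor, and are 6 of the 55487 genes in the count table. All 6 were among the 16061 genes with enough reads to be tested. The study asked how loss of Argonaute 2 (Ago2), the protein that carries microRNAs to their target transcripts, in cancer cells changes the tumor they form. Lewis lung carcinoma (LLC) cells, a mouse lung cancer line, were injected under the skin of C57BL/6J mice, and RNA was sequenced from whole tumors taken on day 12. There were 4 wild-type (WT) tumors and 4 tumors from Ago2 knock-out (ΔAgo2) cells, each from a separate mouse.

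The knock-out cells carried a lentiviral CRISPR guide and were engrafted as 1 clone, so that the effect of the genotype and of the clone cannot be told apart in these tumors. A control vector in the WT cells is not described in the sources used here. The hosts were young female mice of the same strain in both groups, and the stromal and immune cells that they contributed keep Ago2. Only the cancer cells were therefore edited, while the RNA comes from all cells of the tumor.

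Chemokines of the CC family are small secreted proteins named for a pair of adjacent cysteines near their amino end. They bind receptors with several membrane-spanning segments on leukocytes, which then move up the chemokine gradient. Ccl2, Ccl7 and Ccl12 are ligands of Ccr2, and in tumors they are best known for bringing in monocytes that mature into macrophages. Ccl8 belongs to the same monocyte chemoattractant group, whereas Ccl11, or eotaxin, acts mainly through Ccr3 and is best known for attracting eosinophils.

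The 5 ligand genes lie next to each other on the plus strand of chromosome 11 (GRCm38, the mm10 build, with GENCODE M21 gene models). Ccl2 (ENSMUSG00000035385.5) occupies chr11:82035571-82037453, and Ccl7 (ENSMUSG00000035373.2) follows at chr11:82045712-82047525. Ccl11 (ENSMUSG00000020676.2) is at chr11:82057823-82062955, Ccl12 (ENSMUSG00000035352.3) at chr11:82101845-82103400 and Ccl8 (ENSMUSG00000009185.2) at chr11:82115185-82116799. The whole cluster spans 81.2 kb, and its widest gap, 38889 bp, separates Ccl11 from Ccl12. Ccr2 (ENSMUSG00000049103.14) lies apart, at chr9:124101950-124113557 on the plus strand. An antisense gene, Gm17268, overlaps Ccl2 and had 0 counts in every library.

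The stretch of coding sequence around the adjacent cysteines is shown because it marks the family and because the readout depends on telling these related transcripts apart. Each line gives 54 coding bases, 5′ to 3′, with the codons of both cysteines in capitals.
Ccl2: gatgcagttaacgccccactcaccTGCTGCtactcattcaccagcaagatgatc
Ccl7: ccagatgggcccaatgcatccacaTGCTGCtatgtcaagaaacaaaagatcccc
Ccl8: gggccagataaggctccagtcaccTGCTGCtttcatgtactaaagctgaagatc
Ccl11: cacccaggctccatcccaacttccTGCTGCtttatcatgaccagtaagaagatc
Ccl12: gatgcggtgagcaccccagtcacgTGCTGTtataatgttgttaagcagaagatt
Every window runs across the junction of exon 1 and exon 2, and both cysteine codons lie in exon 2. The exon 2 parts are chr11:82036483-82036535 for Ccl2, chr11:82046518-82046567 for Ccl7, chr11:82116039-82116085 for Ccl8, chr11:82061679-82061725 for Ccl11 and chr11:82102611-82102663 for Ccl12, all on the plus strand of GRCm38. Ccl12 alone spells the second cysteine TGT, and Ccl2 has the longest coding sequence of the 5 ligands, 447 bases against 294 in Ccl7, Ccl8 and Ccl11. Over aligned codons, identity between ligands ran from 59.1% (Ccl2 and Ccl8) to 69.1% (Ccl8 and Ccl12). The longest run of identical bases shared by any pair of ligand transcripts was 23 bases, between Ccl2 and Ccl7. How reads that matched several genes were counted is not given in the sources used here.

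Library totals ran from 7903288 to 52809635 counts in the WT tumors and from 31846706 to 268564145 counts in the ΔAgo2 tumors, with WT tumor 4 the shallowest and ΔAgo2 tumor 4 the deepest. The edited gene itself was not lower in the tumors labelled ΔAgo2. Ago2 read 129.9, 195, 151.3 and 138.5 CPM, the counts scaled to library size, in the 4 WT tumors and 118, 355, 215 and 270.1 CPM in the 4 ΔAgo2 tumors. Its log2 difference was 0.64 (SE 0.30, edgeR adjusted p = 0.205), and it passed, higher in the ΔAgo2 tumors, without ΔAgo2 tumor 1 (0.85, edgeR adjusted p = 0.0441), without WT tumor 3 and ΔAgo2 tumor 1 (0.83, edgeR adjusted p = 0.0382) and under limma voom with quality weights (0.86, adjusted p = 0.0140). Those fits called, in that order, 1793 of 16301, 3981 of 15865 and 4476 of 16061 genes, beside 560 of 16061 in the main fit. The Ago2 transcript level in whole tumors, not lower in the ΔAgo2 group, therefore does not check the labels. Directions below are given as labelled. The study checked the knock-out by Ago2 protein in the cultured cells, which these counts do not measure. WT tumor 3 stood apart in skeletal muscle genes and ΔAgo2 tumor 1 in T cell genes, and values without both of these libraries are given where the call of a chemokine, Ccr2 or Ago2 changed.

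Of the 6 genes, 2 passed the test between genotypes. Ccl2 was higher and Ccl11 was lower in the ΔAgo2 tumors, both by more than 3-fold, while Ccl7, Ccl8, Ccl12 and Ccr2 did not pass. Over all genes tested, 3.49% passed at the same threshold (edgeR quasi-likelihood test, Benjamini-Hochberg adjusted p under 0.05). In 3 of the 6 genes, Ccl2, Ccl11 and Ccr2, the CPM of the 4 ΔAgo2 tumors did not overlap that of the 4 WT tumors, against 16.4% of all genes tested. The estimated log2 difference was above 0 in 5 of the 6 genes, against 52.5% of all genes tested. Its median was 0.73 over the 6 beside 0.04 over all genes.

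**Figure D1:**
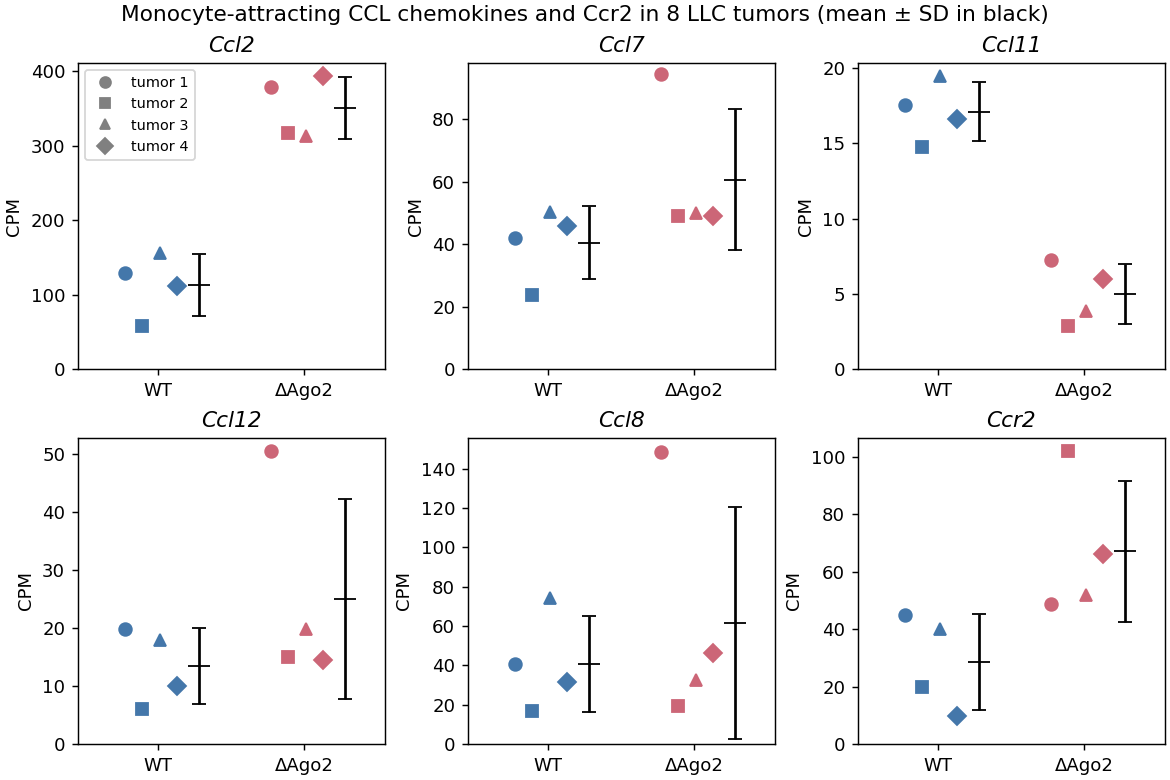
Level of each gene in every tumor, in CPM on a linear axis, with points for the 4 WT and 4 ΔAgo2 tumors and the mean ± SD of each group. Ccl2 stands at 313 to 394 CPM in the ΔAgo2 tumors, above all WT tumors, and Ccl11 at 2.89 to 7.28 CPM, below all WT tumors, while Ccl7, Ccl8 and Ccl12 overlap.

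Ccl2, the main ligand of Ccr2, read 129.6, 57.9, 156 and 111.5 CPM in WT tumors 1 to 4. In ΔAgo2 tumors 1 to 4 it read 379, 317.5, 313 and 394 CPM. The lowest ΔAgo2 tumor was thus above the highest WT tumor, and the ΔAgo2 tumors lay close together. The means were 114 ± 41.5 CPM in WT and 351 ± 41.6 CPM in ΔAgo2 tumors (SD, n = 4 each). Ccl2 rose 3.08-fold, a log2 difference of 1.62 (SE 0.28, approximate 95% interval 0.93 to 2.32, edgeR adjusted p = 0.0150). Without ΔAgo2 tumor 4 the difference was 1.58 with an adjusted p of 0.0600, and with WT tumor 4 and ΔAgo2 tumor 4, the shallowest and the deepest library, both left out it was 1.56 with an adjusted p of 0.142. The study also placed Ccl2 in a list of interferon-related genes that it drew from these same tumors, so its direction there is not independent evidence. In bulk tumors, fewer cells of a type and less RNA per cell cannot be told apart, and the same holds for every gene below.

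Ccl11, the eosinophil attractant, moved the other way. It read 17.6, 14.7, 19.5 and 16.6 CPM in the 4 WT tumors, a narrow range. In the 4 ΔAgo2 tumors it read 7.28, 2.89, 3.85 and 5.98 CPM, so that every ΔAgo2 tumor was below every WT tumor. The means were 17.1 ± 1.98 CPM in WT and 5.001 ± 1.997 CPM in ΔAgo2 tumors (SD, n = 4 each). Ccl11 fell 3.42-fold, a log2 difference of -1.77 (SE 0.31, approximate 95% interval -2.52 to -1.03, edgeR adjusted p = 0.0137). The adjusted p was 0.0545 without ΔAgo2 tumor 3, 0.0583 without ΔAgo2 tumor 4, and 0.0912 with WT tumor 4 and ΔAgo2 tumor 4 both left out, with differences of -1.67, -1.85 and -1.89.

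Ccl7, which binds Ccr1 and Ccr3 as well as Ccr2, read 42.0, 23.7, 50.4 and 45.9 CPM in the WT tumors. It read 94.5, 49.2, 50.1 and 49.0 CPM in the ΔAgo2 tumors, 3 of which lay within the narrow band at the upper edge of the WT range. The means, 40.5 ± 11.7 and 60.7 ± 22.5 CPM (SD, n = 4 each), differed by 0.58 on the log2 scale (SE 0.30, interval -0.14 to 1.31, edgeR adjusted p = 0.230). The difference was 0.28 without ΔAgo2 tumor 1, 0.13 with the trend on GC content removed and 0.05 with that trend removed and a replicate block added.

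Ccl12, a mouse ligand of Ccr2, read 19.9, 6.06, 17.9 and 10.03 CPM in the WT tumors. In the ΔAgo2 tumors it read 50.6, 15.1, 19.8 and 14.4 CPM, with ΔAgo2 tumor 1 again far above the rest. The means were 13.5 ± 6.54 and 24.98 ± 17.28 CPM (SD, n = 4 each), and the log2 difference was 0.88 (SE 0.47, interval -0.28 to 2.04, edgeR adjusted p = 0.253). It was 0.27 without ΔAgo2 tumor 1 and -0.10 under limma voom with quality weights, so that its direction is not fixed.

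Ccl8, of the same monocyte attractant group, had the largest SE of the 6. It read 40.7, 16.9, 74.2 and 31.5 CPM in the WT tumors and 148.6, 19.3, 32.5 and 46.5 CPM in the ΔAgo2 tumors. The ΔAgo2 group spanned a wider range than the WT group and contained most of it. The log2 difference of 0.59 (SE 0.60, interval -0.88 to 2.07, edgeR adjusted p = 0.540) turned to -0.32 without ΔAgo2 tumor 1 and to -0.13 under voom with quality weights.

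ΔAgo2 tumor 1 had the highest CPM of all 8 tumors for Ccl7, Ccl8 and Ccl12, but not for Ccl2. The same tumor had the highest summed level of the 8 T cell genes, 60.6 TPM (the deposited unit, scaled to transcript length and library size) against 18.8 to 25.8 in the other 3 ΔAgo2 tumors, and of the 14 macrophage genes, 7500 against 4540 to 6160 TPM. It had the lowest summed level of the 11 fibroblast genes of all 8 tumors, 785 TPM. The part of these cell types in the chemokine levels was not tested.

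Ccr2, the receptor, read 44.8, 19.8, 40.2 and 9.75 CPM in the WT tumors. It read 48.6, 102, 51.8 and 66.2 CPM in the ΔAgo2 tumors, all above the highest WT tumor, although ΔAgo2 tumor 1 was only slightly so. The means were 28.6 ± 16.6 and 67.2 ± 24.5 CPM (SD, n = 4 each). The log2 difference of 1.22, a ratio of 2.33 (SE 0.43, interval 0.17 to 2.27), had an edgeR p of 0.0163 before adjustment and 0.115 after it, and so did not pass. DESeq2 gave an adjusted p of 0.0419, and leaving out WT tumor 3 and ΔAgo2 tumor 1 gave a difference of 1.52 with an edgeR adjusted p of 0.0425. These were the 2 of 23 alternatives in which Ccr2 passed, and over all genes they called 2292 of 16061 and 3981 of 15865. With the trend on GC content removed, the Ccr2 difference was 0.54 with an edgeR adjusted p of 0.238. In the deposited TPM values the groups overlapped, with 15.8 TPM in ΔAgo2 tumor 1 below the 18.9 and 17.1 TPM of WT tumors 1 and 3.

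**Figure D2:**
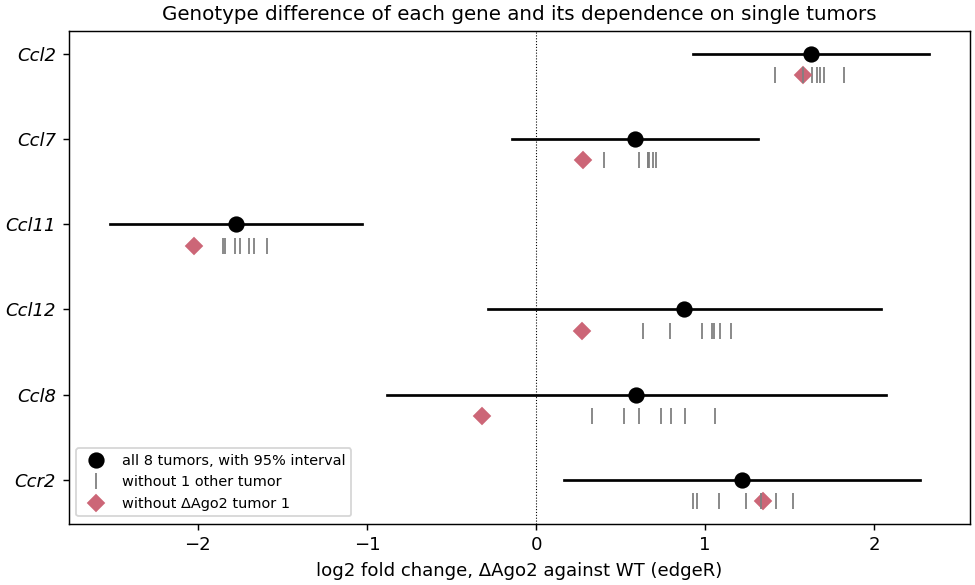
Log2 difference between ΔAgo2 and WT tumors for the 6 genes, with approximate 95% intervals from the edgeR fit. The estimates without each tumor in turn are drawn as well. The intervals of Ccl2 and Ccl11 lie on opposite sides of 0, that of Ccr2 starts at 0.17, and those of Ccl7, Ccl8 and Ccl12 include 0.

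Because TPM takes transcript length into account, it allows the ligands to be set beside each other within a tumor. On log2(TPM + 1), 65.9% of all genes tested were higher in the ΔAgo2 tumors, with a median log2 difference of 0.21. The share of genes whose TPM did not overlap was not computed. The summed level of the 5 ligands was 853, 394, 1143 and 506 TPM in the WT tumors and 1849, 1498, 1392 and 1805 TPM in the ΔAgo2 tumors. The groups did not overlap in this sum, but they did in the TPM of Ccl8 and of Ccl12 alone. Ccl7, whose CPM overlapped, did not overlap in TPM, with 84.2 to 181 in WT and 197 to 259 in ΔAgo2 tumors. Ccl2 made up 34.6 to 39.0% of that sum in the WT tumors. It made up 68.2, 62.3 and 65.2% in ΔAgo2 tumors 2, 3 and 4, but 39.5% in ΔAgo2 tumor 1, where Ccl8 held 34.5%. Ccl11 held 4.5 to 9.8% of the sum in the WT tumors and 0.7 to 1.0% in the ΔAgo2 tumors. Ccl2 was the most abundant ligand in 7 of the 8 tumors, and in WT tumor 3 Ccl8 was above it, with 418 against 395 TPM. Ccl7 was above Ccl8 only in ΔAgo2 tumor 2, and the order of these 2 ligands within a group did not exceed the spread between tumors. Ccl11 had the lowest share in every tumor except WT tumor 2, where Ccl12 was lower.

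**Figure D3:**
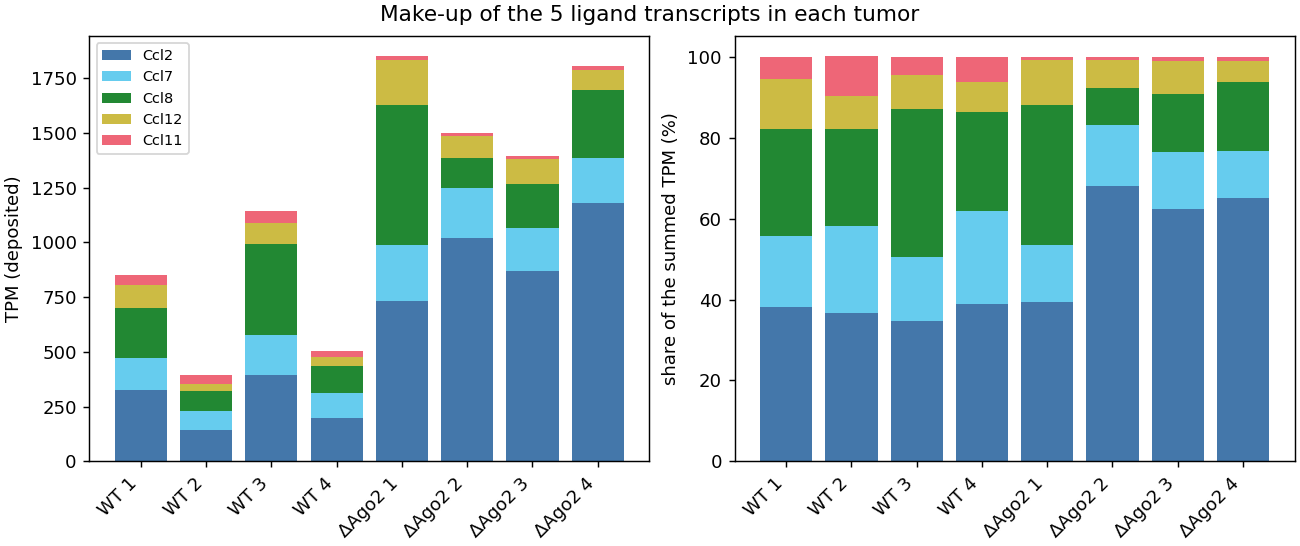
Share of each ligand in the summed TPM of the 5 ligands, as stacked bars for the 8 tumors. Ccl2 takes 34.6 to 39.0% in the WT tumors and 39.5 to 68.2% in the ΔAgo2 tumors, and the Ccl11 part narrows to 0.7 to 1.0%.

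Ratios between genes within a tumor do not depend on how libraries were scaled. All 15 pairs of the 6 genes were compared between genotypes with a two-sided permutation test, exact over the 70 ways to divide 8 tumors, whose smallest possible p is 0.0286. In 6 pairs the groups did not overlap and p reached that smallest value, which became 0.0715 after adjustment over the 15 pairs, so that 0 of 15 pairs passed and 6 had an unadjusted p under 0.05. These were the 5 pairs that hold Ccl11 and the pair of Ccl2 and Ccl7.

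The log2 ratio of Ccl2 to Ccl11 was 2.88, 1.97, 3.00 and 2.74 in the WT tumors and 5.70, 6.77, 6.34 and 6.04 in the ΔAgo2 tumors, a difference of 3.56. The log2 ratio of Ccl7 to Ccl11 was higher by 2.43 in the ΔAgo2 tumors and that of Ccl8 to Ccl11 by 2.21. The log2 ratio of Ccl11 to Ccl12 differed by -2.68 and that of Ccl11 to Ccr2 by -3.26. In these 4 pairs and in the pair with Ccl2, Ccl11 was lower against its partner in every ΔAgo2 tumor than in any WT tumor, including partners whose own level did not pass the test. The log2 ratio of Ccl2 to Ccl7, the nearest neighbour of Ccl2, was 1.28 to 1.63 in the WT tumors and 2.00 to 3.01 in the ΔAgo2 tumors, a difference of 1.13. The log2 ratio of Ccl2 to its receptor differed by 0.31 (exact permutation p = 0.514), less than the spread between tumors.

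**Figure D4:**
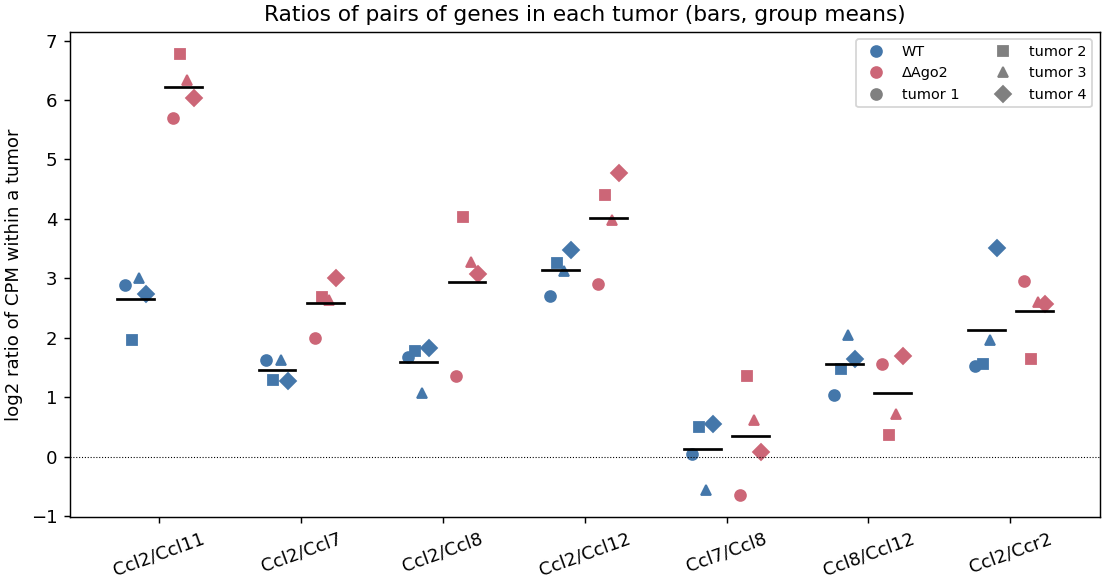
Log2 ratio of CPM in every tumor for a part of the 15 gene pairs, with a bar for each group mean. The pairs drawn are Ccl2 with Ccl11, Ccl7, Ccl8, Ccl12 and Ccr2, and Ccl8 with Ccl7 and Ccl12. Of the 6 pairs that separate the 4 WT from the 4 ΔAgo2 tumors, those of Ccl2 with Ccl11 and with Ccl7 are drawn. The Ccl2 to Ccl11 ratio moves from 1.97 to 3.00 up to 5.70 to 6.77.

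Along the chromosome, the gene that fell lies between genes that did not. Ccl11 starts 10297 bp beyond the end of Ccl7 and ends 38889 bp before Ccl12. In order of position, the log2 differences were 1.62 for Ccl2, 0.58 for Ccl7, -1.77 for Ccl11, 0.88 for Ccl12 and 0.59 for Ccl8, of which only those of Ccl2 and Ccl11 passed the test.

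**Figure D5:**
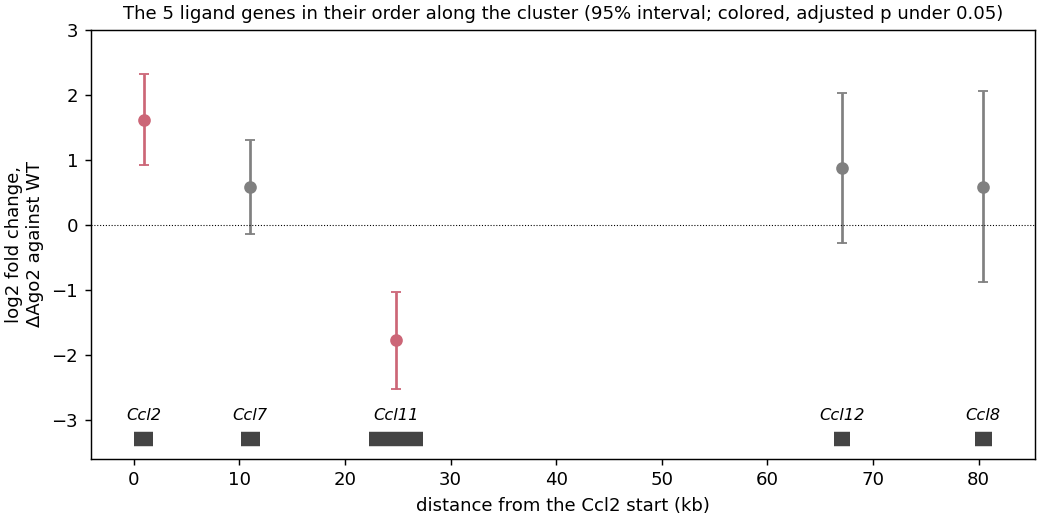
The 5 ligand genes drawn to scale in kb from the start of Ccl2, with the log2 difference between ΔAgo2 and WT tumors above each gene and its approximate 95% interval. Ccl11, 22.3 kb from the start, lies below 0 between Ccl7 and Ccl12, whose intervals include 0.

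Among tumors of the same genotype, several ligands varied together. With the mean of each genotype removed, Pearson's r of log2 CPM over the 8 libraries was 0.89 for Ccl7 and Ccl12, 0.88 for Ccl7 and Ccl8, 0.87 for Ccl8 and Ccl12 and 0.88 for Ccl8 and Ccl11. For Ccl2 it was 0.75 with Ccl7 and 0.48 with Ccl11. For Ccr2 it lay between -0.16 and 0.34 with the 5 ligands. The values are a description of libraries that share scaling and depth, and ΔAgo2 tumor 1, high in Ccl7, Ccl8 and Ccl12, bears on them.

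Of 12948 other genes, those with the highest r to each member were Emc4, Crem and Cetn4 for Ccl2, Ilf2, Ss18l2 and Ube2a for Ccl7, and Polr2d, Fabp4 and Ralb for Ccl8. They were Rpl34-ps1, Rpl39-ps and Cd209f for Ccl11, Psmd7, Tbca and Asnsd1 for Ccl12, and Erap1, Kcnk6 and Dnajb14 for Ccr2. The r values ran from 0.969 to 0.995 over 8 libraries. None of these 18 genes passed the test between genotypes, the smallest edgeR adjusted p being 0.0537 for Erap1, an aminopeptidase that trims peptides for MHC class I.

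The promoters of Ccl8 and Ccl12, neighbours whose levels varied together, are shown as the 120 bases before the RefSeq start (GRCm38.p6, plus strand, chr11:82115065-82115184 and chr11:82101725-82101844), with TATAAA in capitals.
Ccl8: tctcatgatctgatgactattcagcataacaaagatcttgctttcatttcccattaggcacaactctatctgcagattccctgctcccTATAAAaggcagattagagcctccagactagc
Ccl12: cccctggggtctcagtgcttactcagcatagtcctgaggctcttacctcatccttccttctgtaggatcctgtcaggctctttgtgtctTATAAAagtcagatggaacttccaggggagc
TATAAA began 32 bases before the start of Ccl8 and 31 bases before that of Ccl12, and stood on either strand in 12.4% of 32851 promoters of 250 bases. The letters GGANNTTCC, a short form of the NF-kB motif, were found before Ccl12 and in 3.6% of promoters, and GAAANNGAA, a short form of the interferon-stimulated response element, before Ccr2 and in 7.1%. Promoters matched for 3 of the 6 genes, Ccl8, Ccl12 and Ccr2. Such matches describe letters and not binding.

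The other genes of the chemokine system and the cell type markers were read against all genes tested, of which 3.49% passed in edgeR, 26.7% had an unadjusted p under 0.05, 14.3% passed in DESeq2 and 27.9% in voom with quality weights. Counts over lists this short are a description. Of 15 other CC chemokines 11 were tested, and 1 passed. Ccl28, a chemokine of mucosal epithelia, rose from 0.376 ± 0.162 to 1.45 ± 0.622 CPM (SD, n = 4 each), a log2 difference of 2.04 (edgeR adjusted p = 0.0455). Its level was very low, with only 4 to 20 counts in the WT libraries. The call was lost in 6 of the 8 fits that left out 1 tumor and held without WT tumor 3 and without ΔAgo2 tumor 1, with adjusted p from 0.0274 to 0.157. The median log2 difference of the 11 was -0.04, beside 0.04 for all genes, and 0.13 on log2(TPM + 1), beside 0.21. Of 13 other CC and atypical receptors 10 were tested and 0 passed in edgeR, with 1 at an unadjusted p under 0.05, 1 passing in DESeq2 and 1 in voom with quality weights, and with a median of 0.10. Ccr1, a receptor of Ccl7, had 26.8 ± 13.4 CPM in WT and 53.9 ± 7.06 CPM in ΔAgo2 tumors (SD, n = 4 each), a log2 difference of 1.00 with an edgeR adjusted p of 0.103. Ccr3, the receptor of Ccl11, was at the low levels of 0.585 ± 0.101 and 0.340 ± 0.146 CPM (SD, n = 4 each), with an edgeR adjusted p of 0.259.

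All 15 genes that signal below Ccr2 were tested and 0 passed in edgeR, with 3 at an unadjusted p under 0.05, 0 passing in DESeq2 and 3 in voom with quality weights. Of the 15, 5 were above and 10 below 0, with a median of -0.30, or -0.07 on log2(TPM + 1). Grk6, a kinase that acts on activated receptors of this kind, had the smallest p of the list, with a log2 difference of -0.57 (edgeR adjusted p = 0.129). Of 12 cytokines known to induce these chemokines 7 were tested, and Il1a, an alarmin of the interleukin-1 family, passed with a log2 difference of 2.04 (edgeR adjusted p = 0.0492). Il1a was at very low levels, 0.190 ± 0.137 CPM in WT and 0.941 ± 0.189 CPM in ΔAgo2 tumors (SD, n = 4 each), with 0 counts in 1 WT library, and its call held without ΔAgo2 tumor 1 but was lost in the other 7 fits that left out 1 tumor, with adjusted p up to 0.171. Ifng was not among those tested. Of 7 monocyte growth factor genes, Csf3, which encodes the granulocyte growth factor G-CSF, fell 9.25-fold (edgeR adjusted p = 0.0272), and the other 6 did not pass. The call of Csf3 was lost without ΔAgo2 tumor 2, 3 or 4, with adjusted p up to 0.0878. Csf1, the growth factor of macrophages, had 257 ± 19.8 CPM in WT and 342 ± 57.3 CPM in ΔAgo2 tumors (SD, n = 4 each, edgeR adjusted p = 0.199).

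Markers of the cells that carry Ccr2 were set beside its level. Of 10 inflammatory monocyte genes, 0 passed in edgeR, with 2 at an unadjusted p under 0.05, 1 passing in DESeq2 and 0 in voom with quality weights. Of the 10, 8 were above 0, and the median log2 difference was 0.38. Plac8 had the smallest p, with 18.1 ± 7.68 CPM in WT and 43.7 ± 23.0 CPM in ΔAgo2 tumors (SD, n = 4 each, edgeR adjusted p = 0.0990). The summed level of the list was 761 to 1280 TPM in WT and 793 to 1780 TPM in ΔAgo2 tumors. Of 14 macrophage genes 0 passed in edgeR, with 4 at an unadjusted p under 0.05, 1 passing in DESeq2 and 5 in voom. Of the 14, 5 were above and 9 below 0. Their median was -0.12, or 0.02 on log2(TPM + 1), and Mertk, a receptor for the uptake of dead cells, had a log2 difference of -1.08 (edgeR adjusted p = 0.0625). Fcgr1 went the other way, with a log2 difference of 0.77 (edgeR adjusted p = 0.143). Of 8 pan-leukocyte genes 0 passed in edgeR, with 1 at an unadjusted p under 0.05 and 1 passing in each of DESeq2 and voom. Of the 8, 6 were above and 2 below 0, and their median was 0.53. Ptprc, which encodes CD45, had a log2 difference of 1.12 (edgeR adjusted p = 0.0785). Coro1a went the other way, with a log2 difference of -0.87 (edgeR adjusted p = 0.263). Without ΔAgo2 tumor 1 both Mertk and Ptprc passed, with edgeR adjusted p of 0.0445 and 0.0412. That fit called 1793 of 16301 genes, beside 560 of 16061 with all 8 tumors. No gene of these 3 lists was at 0 in any library. The part of these cells in the Ccr2 level was not tested.

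Fibroblasts are a usual source of Ccl11, and eosinophils are the cells it draws. Of 11 fibroblast genes 1 passed, Fap, a surface protease of activated fibroblasts, which fell 2.86-fold (edgeR adjusted p = 0.0329), while 8 had an unadjusted p under 0.05, 3 passed in DESeq2 and 7 in voom with quality weights. The call was lost in 5 of the 8 fits that left out 1 tumor and held without WT tumor 1, WT tumor 3 or ΔAgo2 tumor 1, with adjusted p up to 0.121. The other 10 did not pass in edgeR, 8 of the 11 were below 0 and the median was -0.64, or -0.38 on log2(TPM + 1), with a log2 difference of -1.30 for the collagen gene Col1a1 (edgeR adjusted p = 0.0591, and 0.0380 without WT tumor 1 or 0.0478 without ΔAgo2 tumor 1). Of the 8 with an unadjusted p under 0.05, Pdgfra and Dpt were above 0. Their log2 differences were 0.68 and 0.46 (edgeR adjusted p = 0.165 and 0.164). The summed fibroblast level was 1460 to 2680 TPM in WT and 785 to 2120 TPM in ΔAgo2 tumors. Only 1 of 7 eosinophil genes, Ear2, had enough reads to be tested, and Epx, the eosinophil peroxidase, had 0 counts in every library. The summed eosinophil level was 0.24 to 5.60 TPM in WT and 1.80 to 4.94 TPM in ΔAgo2 tumors. The part of fibroblasts in the Ccl11 level was not tested.

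Of the other cell types, 0 of 7 mast cell, 0 of 6 tested neutrophil, 0 of 8 T cell and 0 of 7 NK cell genes passed in edgeR. At an unadjusted p under 0.05 there were 1, 0, 0 and 3, DESeq2 called 0 in each list, and voom with quality weights called 1, 2, 1 and 0. Their median log2 differences were -0.31, 0.25, 0.14 and 0.72, and -0.10, 0.42, 0.10 and 0.65 on log2(TPM + 1). Of 7 endothelial genes 1 passed in edgeR, Vwf, which fell 2.14-fold (edgeR adjusted p = 0.0466). Of the 7, 2 were above and 5 below 0, with a median of -0.05, or 0.16 on log2(TPM + 1). Emcn had a log2 difference of 0.52 (edgeR adjusted p = 0.297). Of 8 skeletal muscle genes 0 passed in edgeR, while 8 had an unadjusted p under 0.05, 2 passed in DESeq2 and 1 in voom. Their median was -3.16, or -1.64 on log2(TPM + 1), and their summed level was 5310 TPM in WT tumor 3 against 352 to 521 TPM in the other WT tumors and 88.1 to 305 TPM in the ΔAgo2 tumors. Of 8 keratinocyte genes, 8 were above 0, with a median of 1.43, or 1.85 on log2(TPM + 1). Of these, 3 had an unadjusted p under 0.05, 3 passed in DESeq2 and 3 in voom. In edgeR 1 passed, Krt10, which rose 4.18-fold (edgeR adjusted p = 0.0460). The summed keratinocyte level was 15.4 to 825 TPM in WT and 516 to 1400 TPM in ΔAgo2 tumors. The calls of Vwf and Krt10 were each lost in 6 of the 8 fits that left out 1 tumor, held without WT tumor 1 or ΔAgo2 tumor 1 for Vwf and without WT tumor 3 or ΔAgo2 tumor 1 for Krt10, and reached adjusted p of 0.148 and 0.139. Both muscle and skin border a tumor under the skin, and their part in the chemokine levels was not tested.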

How the data were processed

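RNA from 4 WT and 4 ΔAgo2 tumors was sequenced by the authors with a stranded mRNA kit and paired-end reads. The deposited table holds raw counts per Ensembl gene and TPM values from the authors. The submitters' processing notes name STAR and mm10. The annotation, the strand setting and the counting of reads with several matches are not given in the sources used here. Gene positions came from GENCODE M21. Groups came from the sample labels, and all samples carry the same batch label.

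Counts were tested with edgeR 4.0.16 (filterByExpr, TMM scaling, quasi-likelihood test, no covariate) in R 4.3.3, with Benjamini-Hochberg adjustment over all genes tested and a threshold of 0.05. CPM use TMM-scaled totals, and log2 CPM use a prior count of 2. Intervals of the differences are approximate (SE and 6 residual degrees of freedom). Adjusted p-values for ratios cover the 15 pairs. Alternatives were run with DESeq2 1.42.0 and limma 3.58.1, with other filters and scalings, on log2 TPM and without each tumor in turn. The scripts were tested on simulated data.

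The members and gene lists were chosen with earlier results of these data known. Named genes are the members and Ago2, in each list up to 4 genes with the smallest p, and for each member the 3 genes with the highest correlation. One listed gene is counted but not reported here. Epx, Ifng, Pdgfra and Dpt, outside this rule, were named after their values were seen. Libraries differ in depth, and a gene read at 0 could still have 3 counts, which is 0.0105 CPM in the deepest and 0.430 CPM in the shallowest library, which covers counting error only. All libraries differed by more than sampling noise (chi-square per degree of freedom of at least 42.8). Separate mice were used per tumor, so the spread includes that between animals.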

Additional observations from a re-analysis of the deposited data

Results flagged for a closer look

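In groups of 4 tumors, Dixon's test at the 95% level marked 15 of 142 groups of CPM values, where chance alone marks about 1 in 20, or 7.1. Among the chemokines, Ccl7 read 94.5 CPM in ΔAgo2 tumor 1 against 49.0 to 50.1 in the other ΔAgo2 tumors, and Ccl12 read 50.6 CPM in the same tumor against 14.4 to 19.8. The other marked values in ΔAgo2 tumor 1 were Coro1a at 341 CPM (others 124 to 143), Cd3g at 3.51 (0.825 to 1.10), Trbc2 at 7.0 (1.30 to 1.73), Cd8a at 2.75 (0.597 to 0.728) and Cd3d at 5.40 (0.772 to 0.985). Coro1a is a leukocyte gene and the last 4 are T cell genes.

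In WT tumor 3 the muscle genes Acta1 at 1430 CPM (others 107 to 223), Ckm at 509 (24.3 to 90.5), Actn3 at 205 (6.01 to 12.5) and Tnnt3 at 342 (24.7 to 44.7) were marked, as was the macrophage gene Cd163 at 34.8 CPM (11.5 to 14.8). The rest were Csf1r at 124 CPM in ΔAgo2 tumor 4 (164 to 172), Mertk at 25.5 CPM in WT tumor 2 (17.8 to 18.7) and Cd3g at 1.39 CPM in WT tumor 1 (0.399 to 0.430).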

How the results depend on the processing

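Of 560 genes called (219 higher and 341 lower in ΔAgo2 tumors), the alternatives gave 2292 (1133 and 1159) with the DESeq2 Wald test, 4476 (2393 and 2083) with limma voom and quality weights, 983 (515 higher) without a count filter, 153 (77 and 76) with limma on log2(TPM + 1), 107 (41 and 66) on log2(TPM + 0.1) and 77 (33 and 44) on log2(TPM + 1) without a TPM filter. Leaving out 1 tumor gave 88 to 1793 genes (20 to 979 higher, 68 to 814 lower), fewest without ΔAgo2 tumor 4 and most without ΔAgo2 tumor 1. Of settings chosen after seeing the data, leaving out WT tumor 3 and ΔAgo2 tumor 1 gave 3981 (1887 and 2094), and leaving out WT tumor 4 and ΔAgo2 tumor 4 gave 52 (8 and 44). The median log2 difference of all genes was 0.04, and 0.21 and 0.28 on log2(TPM + 1) and log2(TPM + 0.1).

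Of the 6 chemokine system genes, 2 were called (1 higher and 1 lower), 0 with limma on log2(TPM + 1) without a TPM filter, 0 with WT tumor 4 and ΔAgo2 tumor 4 left out and 0 to 2 with 1 tumor left out (0 to 1 higher, 0 to 1 lower). Higher calls were 2 with DESeq2 and 2 without WT tumor 3 and ΔAgo2 tumor 1. Ccl2 passed in 19 and Ccl11 in 18 of 23 alternatives, and both kept their direction in all 23. No pair ratio passed under any alternative. With so few tumors, these exact tests could pass a pair only if many pairs reached the smallest p together. The test with a replicate block could not pass any pair. The absence of passing pairs therefore does not show that the ratios were alike. The cause of the changes in calls was not tested.

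Same-numbered tumors did not deviate together (correlations -0.236, 0.103, -0.0448 and -0.290), so no pairing by number was seen. These values cannot tell how the tumors were collected or handled. With a replicate block, 70 genes (13 and 57) and 0 of the 6 were called, and 304 (124 and 180) with the block and the GC trend removed.

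Signs turned for Ccl8 (-0.13 with voom, -0.32 to 1.06 with 1 tumor left out, lowest without ΔAgo2 tumor 1), Ccl12 (-0.10 with voom), Pdgfb (0.25, and 0.24 with the block, GC removed), Emcn (-0.05, and -0.18 with the block, GC removed) and Klrk1 (-0.03, block and GC). They turned for Ear2 (-0.03 voom, -0.18 GC, -0.36 without WT tumor 2, -0.41 to 0.48 with 1 tumor left out, lowest without ΔAgo2 tumor 1), Cpa3 (0.02 on log2(TPM + 0.1), -0.80 to 0.08 with 1 tumor left out, highest without WT tumor 1), Trbc2 (-0.12 voom, -0.23 without WT tumor 3 and ΔAgo2 tumor 1) and Cd8a (-0.25 voom, -0.33 to 0.76 with 1 tumor left out, lowest without ΔAgo2 tumor 1, -0.58 without WT tumor 3 and ΔAgo2 tumor 1). They turned for Cd3d (-0.91 voom, -0.14 block, -0.18 block and GC, -0.02 without WT tumor 2, -0.08 without WT tumor 3, -1.05 to 0.63 with 1 tumor left out, lowest without ΔAgo2 tumor 1, -1.32 without WT tumor 3 and ΔAgo2 tumor 1) and for the ratio of Ccl7 to Ccl8 (-0.10 GC, -0.01 without WT tumor 3, -0.11 to 0.55 with 1 tumor left out, lowest without ΔAgo2 tumor 2). None of these had passed the test. Depth limits genes near 0 counts in WT tumor 4, the shallowest library.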
